A study of Mus musculus with 14 samples.

Results

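The 7 genes described here, Slc24a4, Pde1c, Pde4a, Slc12a2, Stoml3, Ric8b and Cnih2, are grouped around how an olfactory sensory neuron (OSN) ends its response to an odor and loads chloride. Stoml3, Ric8b and Cnih2 are included with other roles, given below. The 7 were chosen by their symbols, with earlier results of these data known. All 7 were found among the 51211 gene symbols shared by both expression tables and were high enough to be tested in both experiments. RNA was measured in the olfactory epithelium of 14 mice at postnatal day 5 (P5), 1 library per mouse. In the Kir2.1 experiment, 3 mice that carried OMP-IRES-tTA together with the transgene tetO-Kir2.1-IRES-tauLacZ were compared with 3 control mice, littermates heterozygous for OMP-IRES-tTA alone. The tTA allele is therefore carried by the controls as well, and the Omp locus that drives it is active in mature OSNs, so that the potassium channel Kir2.1 is expressed in those neurons and quiets them. The study notes that vomeronasal neurons are affected as well. The sample records give these mice a name that the study uses for adults in which the transgene was later turned off, but their tissue dates from P5, with the channel gene on, and the name Kir2.1 mice is used for them. In the PEA experiment, 4 wild-type mice that smelled 2-phenylethylamine (PEA), an aversive odor, continuously from P0 until P5 were compared with 4 unexposed wild-type mice. The records give the strain as C57BL/6 throughout, whereas the study describes its PEA-exposed pups as CD-1.

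Odorant binding in the cilia of an OSN activates the G protein Golf, adenylyl cyclase makes cAMP, and cAMP opens a cation channel. Calcium that enters through this channel opens the chloride channel Ano2, and chloride leaves the cell, which adds to the depolarization. The response ends as phosphodiesterases destroy cAMP and as exchangers pump calcium out of the cilium. Pde1c encodes the phosphodiesterase of the cilia, which calcium and calmodulin activate, and Pde4a encodes a second cAMP phosphodiesterase, found in the rest of the neuron. Slc24a4 encodes a potassium-dependent sodium/calcium exchanger that clears ciliary calcium, and Slc12a2 encodes the cotransporter NKCC1, which fills the cell with the chloride that Ano2 lets out. Stoml3 encodes a stomatin-like membrane protein of OSN cilia, Ric8b encodes an exchange factor and chaperone of Golf, and Cnih2 encodes a cornichon protein that helps to export cargo such as glutamate receptors from the endoplasmic reticulum.

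Expression of Kir2.1 was accompanied by less Pde1c RNA, which fell by 0.65 on the log2 scale and was the only one of the 7 genes to pass the test across all genes. That call held in 9 of 17 alternative analyses. Of all genes tested, 9.04% were lower in every Kir2.1 mouse than in every control mouse. So were Pde1c and, without passing the test, Stoml3, Ric8b and Slc24a4. The 4 promoters of these genes are shown because their transcripts were the ones with no overlap between the groups. Each sequence is the 250 bases before the transcription start given by RefSeq on GRCm38.p6, read 5′ to 3′ on the strand of the gene. Capitals mark matches to CCCNNGGG, the core of the site bound by Ebf factors, searched on both strands (the letters are their own reverse complement when N is free), and lower case marks all other bases.
Pde1c, chr6:56369635-56369884, minus strand: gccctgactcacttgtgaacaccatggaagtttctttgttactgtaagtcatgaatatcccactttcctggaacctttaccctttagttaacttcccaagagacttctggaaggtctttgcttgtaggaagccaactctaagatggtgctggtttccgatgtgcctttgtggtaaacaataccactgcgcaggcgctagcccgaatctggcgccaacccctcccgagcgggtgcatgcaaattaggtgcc
Stoml3, chr3:53488457-53488706, plus strand: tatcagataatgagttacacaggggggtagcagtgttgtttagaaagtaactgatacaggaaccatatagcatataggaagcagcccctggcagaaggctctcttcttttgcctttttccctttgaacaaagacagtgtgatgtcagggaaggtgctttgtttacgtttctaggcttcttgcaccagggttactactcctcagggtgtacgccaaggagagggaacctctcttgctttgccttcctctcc
Ric8b, chr10:84917363-84917612, plus strand: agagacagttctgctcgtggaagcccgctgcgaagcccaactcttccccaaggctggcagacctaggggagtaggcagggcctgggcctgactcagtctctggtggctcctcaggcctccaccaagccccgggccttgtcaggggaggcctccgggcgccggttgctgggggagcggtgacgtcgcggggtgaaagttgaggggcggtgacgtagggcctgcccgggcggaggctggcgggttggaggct
Slc24a4, chr12:102128477-102128726, plus strand: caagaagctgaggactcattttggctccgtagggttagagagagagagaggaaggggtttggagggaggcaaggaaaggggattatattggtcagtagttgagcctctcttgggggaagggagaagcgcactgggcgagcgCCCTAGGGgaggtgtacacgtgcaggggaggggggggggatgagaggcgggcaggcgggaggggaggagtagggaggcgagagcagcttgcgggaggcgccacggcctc

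Among these 4 windows the CCCNNGGG core was present in that of Slc24a4 alone, with its first base 109 bases before the start. The RefSeq promoters hold 10 starts for 6 of the 7 genes, with 3 each for Pde1c and Pde4a. The Pde1c window shown is that of the furthest upstream of its 3 starts. The annotated Pde1c gene extends further upstream, to chr6:56569103, and which start is used in this tissue was not measured. Of these 10 windows 2 held the core, against 11.8% of the 32851 promoters of the mouse table. The other was a Pde4a start with matches at 240 and 156 bases before it. None of the 10 held the homeodomain core TAATTA (4.84% of all promoters) or the cAMP response element TGACGTCA (1.55%), on either strand. A match is a match of letters, and binding was not measured. Of Slc12a2 no promoter is shown.

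On GRCm38, Pde1c spans chr6:56069804-56569103 on the minus strand, the longest of the genes at 499.3 kb, with 9 annotated coding transcripts, and a miRNA gene, Gm44413, lies within it. Stoml3 (chr3:53488653-53508502) and Ric8b (chr10:84917616-85018337) lie on the plus strand and overlap no other annotated gene. Slc24a4 (chr12:102128733-102267091, plus strand) has an antisense gene, Gm16339, and a small nucleolar RNA gene on its opposite strand. Pde4a (chr9:21165714-21213248, plus strand) overlaps none, and Cnih2 (chr19:5092868-5098521, minus strand) overlaps Yif1a on the other strand. The Kir2.1 libraries carried no strand information, so that reads of Cnih2 and Yif1a, or of Slc24a4 and Gm16339, cannot be told apart where they overlap in that experiment.

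The values are normalized counts, scaled by the authors within each experiment, and levels of different genes were compared per kilobase of the principal transcript and per 1000000 of the mouse's summed normalized counts. In Kir2.1 control mice Stoml3 was the most abundant of the 7 at 337.9 ± 18.1 (SD, n = 3), followed by Ric8b at 67.8 ± 4.36 and Slc12a2 at 51.8 ± 4.33. Pde4a (33.8 ± 3.43), Pde1c (33.1 ± 0.675) and Cnih2 (31.4 ± 3.05) overlapped one another, and Slc24a4 was lowest at 20.9 ± 1.11. The phosphodiesterase of the cilia and the one outside them were thus at about the same RNA level in these 3 mice. In PEA control mice Stoml3 again came first at 189.5 ± 11.3 (SD, n = 4), and Slc12a2 at 111.6 ± 10.5 and Ric8b at 100.1 ± 18.5 overlapped. Pde1c stood at 47.1 ± 8.56 and Slc24a4 at 10.4 ± 1.19, whereas Pde4a (4.84 ± 2.67) and Cnih2 (3.58 ± 0.643), which overlapped, were last, so that Pde4a was here far below Pde1c. Cnih2 and Pde4a were thus 8.77 and 6.98 times as high in the Kir2.1 controls as in the PEA controls, against 0.464 to 2.01 times for the other 5 genes. The former libraries were poly-A selected and the latter depleted of ribosomal RNA, and both sets also differ in read length, strandedness and normalization, so the mice and the libraries cannot be told apart in this ratio.

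**Figure D1:**
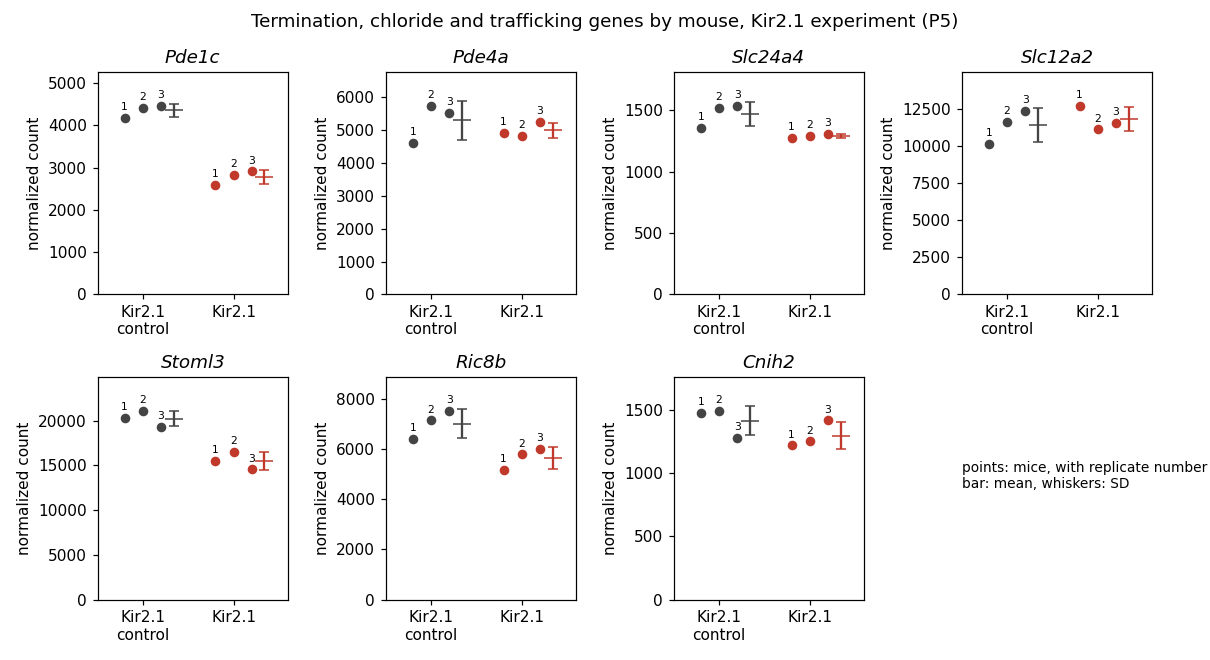
Normalized count of each of the 7 genes (y axes, from 0) in the 3 control mice and the 3 Kir2.1 mice at P5; points are mice with their replicate number, bars are means and whiskers SD. Pde1c lies between 2585 and 2908 in Kir2.1 mice and between 4176 and 4461 in controls; Stoml3, Ric8b and Slc24a4 also separate, and Pde4a, Slc12a2 and Cnih2 overlap.

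The transgene served as a check of the labels. Kcnj2, the mouse gene of Kir2.1, was at 1111 ± 148 in controls and 20216 ± 3457 in Kir2.1 mice (SD, n = 3 each; log2 fold change 4.18, limma adjusted p = 0.000157). Among the 6 mice 1 stood apart: vomeronasal receptor genes (Vmn1r and Vmn2r) averaged 2.47 on the log2 scale in control 1 and 0.646 to 0.700 in the other 5, and results were also computed without that mouse. The sums of the normalized counts were 33049111 to 34198478 in this experiment and 11476120 to 12467331 in the other, which follow normalization and do not give the depth of sequencing, which is unknown.

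Pde1c showed the clearest difference. Its normalized count was 4176, 4417 and 4461 in the control mice and 2585, 2823 and 2908 in the Kir2.1 mice. All 3 Kir2.1 mice were below all 3 controls, and the gap between the groups was several times the spread within either. The mean went from 4351 ± 154 to 2772 ± 168 (SD, n = 3 each), which is 1.57-fold lower (log2 fold change -0.65, SE 0.072, 95% interval -0.82 to -0.48, limma adjusted p = 0.0223 over 19807 genes). At this threshold 0.353% of all genes tested were called, and 1 of the 7 was. The call was not firm. With all mice included the adjusted p was 0.119 with no mean-variance trend and 0.0738 with the vomeronasal receptor level as a covariate. It was 0.0455 without Kir2.1 mouse 3 and between 0.0751 and 0.127 without any one of the other 5 (0.0780 without control 1), with log2 fold changes from -0.69 to -0.60. In bulk tissue, fewer mature OSNs and less RNA in each of them cannot be told apart.

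Pde4a, whose product degrades cAMP outside the cilia, gave 4616, 5744 and 5530 in controls and 4918, 4822 and 5253 in Kir2.1 mice. The Kir2.1 values lay within the range of the controls (log2 fold change -0.08, 95% interval -0.30 to 0.15, limma adjusted p = 0.844), so a fall as large as that of Pde1c lies outside the interval. Their ratio within each mouse is formed from these same values and adds no separate evidence. The log2 ratio of Pde1c to Pde4a was -0.38 to -0.14 in controls and -0.93 to -0.77 in Kir2.1 mice, a difference of -0.57 without overlap (exact two-sided permutation p = 0.1, the smallest that 3 mice against 3 allow). This ratio was chosen with the values known.

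Slc24a4, the calcium exchanger of the cilia, was at 1358, 1522 and 1537 in controls and at 1274, 1290 and 1311 in Kir2.1 mice. The groups did not overlap, but control 1 came close to the Kir2.1 mice, and the difference was small (log2 fold change -0.19, SE 0.078, limma adjusted p = 0.436). The NKCC1 gene Slc12a2 gave 10136, 11627 and 12366 in controls and 12691, 11108 and 11550 in Kir2.1 mice. The lowest of the 6 values was that of a control and the highest that of a Kir2.1 mouse, and the groups overlapped (log2 fold change 0.05, 95% interval -0.17 to 0.28, adjusted p = 0.905).

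Stoml3, the stomatin-like gene, had 20273, 21063 and 19318 in controls against 15492, 16539 and 14540 in Kir2.1 mice. Every Kir2.1 mouse was below every control, at 1.3-fold on the means (log2 fold change -0.38, SE 0.075, 95% interval -0.56 to -0.21, limma adjusted p = 0.121). Ric8b, which serves Golf, followed with 6390, 7127 and 7502 against 5160, 5780 and 5989. Here too the groups were apart, by less relative to their spread (log2 fold change -0.31, SE 0.090, limma adjusted p = 0.258). Cnih2 was at 1477, 1490 and 1279 in controls and at 1219, 1252 and 1417 in Kir2.1 mice, and the groups overlapped through control 3 and Kir2.1 mouse 3 (log2 fold change -0.13, 95% interval -0.35 to 0.10, adjusted p = 0.722).

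By count, 6 of the 7 genes had a lower mean in Kir2.1 mice, against 48.8% of all genes tested, and their median log2 fold change was -0.19, against 0.0056 over all genes. Below an unadjusted p of 0.05 there were 4 lower genes of the 7 (6.2% of all genes were lower at that level and 4.93% higher) and 0 higher. The groups were apart, with the Kir2.1 mice below, for the same 4 genes, against 9.04% of all genes. The 7 genes were chosen with earlier results of these data known, so these counts are a description and not a test of the set. Pde1c, Stoml3 and Ric8b were below an unadjusted p of 0.05 in all 17 alternative analyses run, and Slc24a4 in 8 of them.

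**Figure D2:**
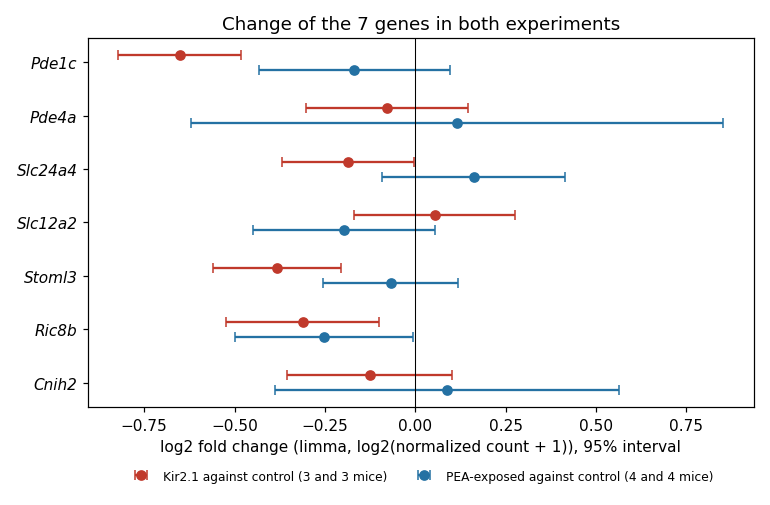
Log2 fold change of the 7 genes (x axis) in the Kir2.1 experiment (red, 3 and 3 mice) and in the PEA experiment (blue, 4 and 4 mice); points are limma estimates and bars 95% intervals, and the experiments were fitted apart. In red, the intervals of Pde1c, Stoml3, Ric8b and Slc24a4 lie below 0; in blue, that of Ric8b alone does, ending at -0.01.

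These differences were set against 10 genes that mark mature OSNs (Omp, Gnal, Gng13, Adcy3, Cnga2, Cnga4, Cngb1, Ano2, Rtp1 and Gfy). The list is called the transduction cascade here, although not all of its genes are steps of it: Rtp1 encodes a chaperone of odorant receptors. All 10 were lower in Kir2.1 mice, each at an unadjusted p below 0.05, with a median log2 fold change of -0.41 and with 9 of 10 separating the groups. Only Omp, the olfactory marker protein, fell by the adjusted test, from 33338 ± 2501 to 22010 ± 1319 (SD, n = 3 each; log2 fold change -0.60, limma adjusted p = 0.0466, 0.148 with no mean-variance trend, 0.145 with the vomeronasal covariate and between 0.0704 and 0.175 without any one mouse). For Adcy3, the cyclase, the log2 fold change was -0.54 (adjusted p = 0.0720), for Ano2 -0.41 (0.104), for Gnal, the alpha subunit of Golf, -0.41 with overlapping groups (0.400), and for Cnga2, a subunit of the cation channel, -0.34 (0.243). The summed normalized count of the 10 genes was 152698 to 169336 in controls and 110437 to 125343 in Kir2.1 mice.

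Relative to the mean log2 level of those 10 genes in the same mouse, Pde1c was still lower in Kir2.1 mice, with -1.69 to -1.60 against -1.46 to -1.41 in controls, a difference of -0.21. Stoml3 was at 0.66 to 0.95 against 0.65 to 0.87, a difference of 0.06 with overlap (exact permutation p = 0.5), and so differed from controls by less than the spread between mice on this scale. The other 5 genes were higher relative to the 10-gene mean in every Kir2.1 mouse. All 10 genes of that mean were themselves lower in these mice, so a gene that fell less than they did comes out higher on this scale. Not set against the mean, Slc12a2 had a log2 fold change of 0.05 and Pde4a of -0.08. Slc12a2 stood out most, with a difference of 0.49 (0.33 to 0.61 in Kir2.1 mice and -0.13 to 0.01 in controls), and Pde4a differed by 0.36, Cnih2 by 0.31, Slc24a4 by 0.25 and Ric8b by 0.13. For these 5 and for Pde1c the exact two-sided p was 0.1, the smallest that 3 mice against 3 allow, so that no p below 0.05 was possible. With Cnga2 alone as the reference, the difference of Ric8b was 0.025 (exact permutation p = 0.8), that of Slc24a4 0.15 (p = 0.2) and that of Pde4a 0.26 (p = 0.2), each with overlapping groups, while Slc12a2 (0.39), Cnih2 (0.21) and Pde1c (-0.31) kept the groups apart. The tests of the genes on this scale numbered 14 over both experiments and are given unadjusted.

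Ratios of a gene to 1 other gene were computed in the same way. The log2 ratio of Slc12a2 to Ano2 was 1.16 to 1.25 in controls and 1.55 to 1.84 in Kir2.1 mice, a difference of 0.46. That of Slc24a4 to Ano2 was -1.76 to -1.72 against -1.56 to -1.47, a difference of 0.22. For both the exact permutation p was 0.1, the smallest possible here. Taken alone, Ano2 had a log2 fold change of -0.41, Slc12a2 of 0.05 and Slc24a4 of -0.19, so both ratios rose with the fall of Ano2. Slc12a2 is expressed by many cell types, so its ratio is not one of OSNs alone. Pde1c was not apart from every gene of the cascade: its log2 ratio to Omp differed by -0.05 (exact permutation p = 0.6) and that to Adcy3 by -0.11 (p = 0.4), with overlapping groups, whereas that to Cnga2 differed by -0.31 without overlap (p = 0.1). In all, 16 such ratios were computed over both experiments with the values known, and after adjustment over them the lowest p was 0.153.

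**Figure D3:**
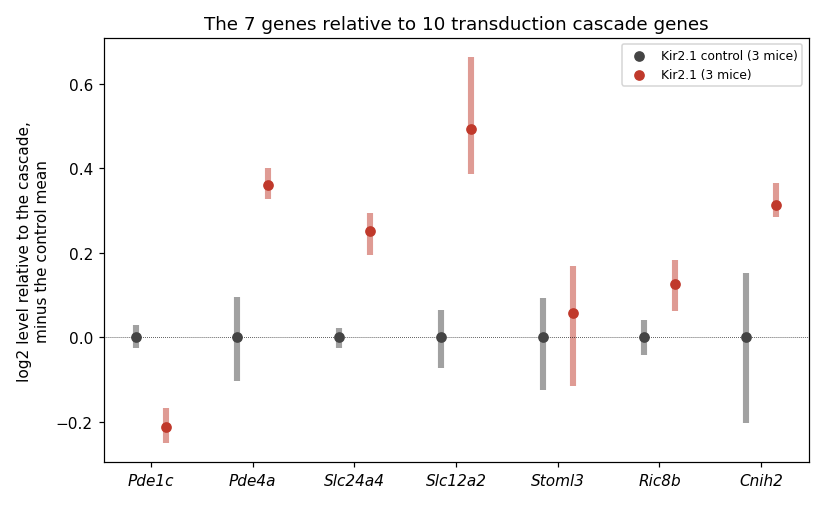
Log2 level of each of the 7 genes relative to the mean of 10 transduction cascade genes in the same mouse, minus the mean of the control mice (y axis); points are group means and bars run from the lowest to the highest of 3 mice. Pde1c is below 0 in Kir2.1 mice, Stoml3 overlaps the controls, and the other 5 genes lie above them, Slc12a2 furthest at 0.49.

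Of the 17 other genes tested that end the response or remove calcium, 1 fell and 1 rose by the adjusted test. The mean was lower in Kir2.1 mice for 13 of the 17, against 48.8% of all genes, with a median log2 fold change of -0.14. The Kir2.1 mice lay entirely below the controls for 6 of 17, against 9.04% of all genes, and at an unadjusted p below 0.05 there were 3 lower genes and 1 higher. This list, too, was chosen with earlier results of these data known, and its counts are a description. Slc8a1, a sodium/calcium exchanger that works without potassium, fell from 1951 ± 132 to 962 ± 13.4 (SD, n = 3 each; log2 fold change -1.02, limma adjusted p = 0.00532, 0.0178 without control 1 and 0.0350 with no mean-variance trend). Rgs2, a regulator of G protein signaling, rose from 688 ± 7.64 to 1161 ± 110 (log2 fold change 0.75, adjusted p = 0.0325, and 0.0368 to 0.164 without any one mouse, below 0.05 in 1 of those 6 fits). With all mice its adjusted p was 0.119 with no mean-variance trend, 0.132 with the vomeronasal covariate and 0.0554 with Xist as a covariate, and the call was lost in each. The lowest log2 fold change of the list was that of the calcium pump gene Atp2b2 at -1.03, where the controls ranged from 69.6 to 271 and the adjusted p was 0.541.

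Among 20 tested paralogs of the 7 genes, the relative of Slc24a4 that is best known from cone photoreceptors and brain, Slc24a2, fell from 3759 ± 158 to 2163 ± 63.5 (log2 fold change -0.80, limma adjusted p = 0.00704, 0.0338 without control 1 and 0.0636 with no mean-variance trend). It was the only paralog called, beside 0.353% of all genes tested, and the median of the list was -0.03. At an unadjusted p below 0.05, 6 of the 20 were lower and 1 was higher, against 6.2% and 4.93% of all genes. The Kir2.1 mice lay entirely below the controls for 6 of 20, against 9.04% of all genes. The paralogs were also listed with earlier results of these data known, so these counts are a description. Slc24a2 thus fell where Slc24a4 itself, at -0.19, did not pass. Stom, the gene of stomatin, was 36035 ± 1794 in controls and 25497 ± 1661 in Kir2.1 mice without overlap (log2 fold change -0.50, adjusted p = 0.0693), beside -0.38 for Stoml3. Of the phosphodiesterase paralogs, Pde4d had the highest log2 fold change of the list at 0.47 (adjusted p = 0.109), Pde1a had -0.52 (0.349) and Pde1b -0.00, and Slc24a5 had the lowest at -1.08 (0.295). Ric8a, the paralog that serves other G proteins, was at 3595 ± 158 and 3629 ± 122.

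Of the genes that handle chloride, 14 of 15 were tested and 0 were called in the Kir2.1 experiment by limma, with 2 lower and 1 higher at an unadjusted p below 0.05. Their median log2 fold change was 0.03, beside 0.05 for Slc12a2. Ano2, given above, and Slc12a7, a potassium-chloride cotransporter (log2 fold change -0.18, adjusted p = 0.327), were the 2 lower genes. The extremes were Slc12a5 at -0.43 and Slc4a1, the anion exchanger of red blood cells, at 0.57, neither of which passed.

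**Figure D4:**
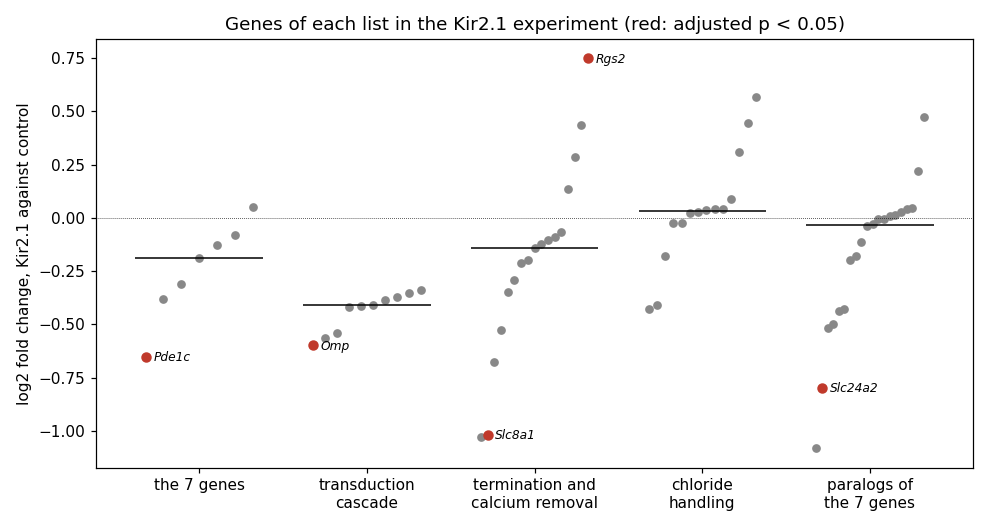
Log2 fold change in the Kir2.1 experiment (y axis) of every tested gene of the 7 and of the 4 lists around them; each point is a gene, ordered by value within its list, horizontal bars are list medians and red points passed an adjusted p of 0.05. Pde1c, Omp, Slc8a1 and Slc24a2 are the red points below 0 and Rgs2 the only one above.

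Markers of other cells of the tissue were looked at beside these values, and 0 of the 33 tested by limma passed in the Kir2.1 experiment, with 3 higher and 1 lower at an unadjusted p below 0.05. Multiciliated respiratory cell markers had a median log2 fold change of 0.25 and a summed normalized count of 16980 to 20825 in controls and 20788 to 29762 in Kir2.1 mice, with 2 of 7 higher at an unadjusted p below 0.05. Immature OSN markers (0 of 5 at that level, sums of 33321 to 35131 and 27828 to 36813), cycling progenitors (0 of 4) and sustentacular cells (0 of 5, median -0.14) overlapped. Horizontal basal cell (0.34) and secretory gland cell markers (0.37) had medians above 0 with overlapping sums, and glial markers had 0.23. The lower one was Trpc2, the ion channel gene of vomeronasal neurons, at 282.6 to 527.5 in controls and 145.1 to 225.0 in Kir2.1 mice (log2 fold change -1.16, adjusted p = 0.173). Slc12a2 and Pde4a are expressed by many cell types, and the part that cell makeup had in their values was not tested.

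In the PEA experiment, 0 of the 7 genes passed the test, beside 0.179% of all genes tested. At an unadjusted p below 0.05, 1 of the 7 genes, Ric8b, was lower and 0 were higher, against 6.04% lower and 8.93% higher of all 17322 genes. Ric8b was at 3237, 4237, 3175 and 4054 in the control mice and at 3099, 3096, 2979 and 3072 in the exposed mice. The exposed mice lay close together just below the lowest control, and controls 2 and 4 made most of the difference (log2 fold change -0.25, SE 0.111, limma adjusted p = 0.324). It was the only one of the 7 whose groups did not overlap, against 3.86% of all genes with the exposed mice below. The unadjusted p stayed below 0.05 in 9 of 20 alternative analyses.

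Pde1c, which fell in Kir2.1 mice, was at 1911, 2442, 1927 and 2530 in PEA controls and at 2039, 1785, 2100 and 1864 in exposed mice. The groups overlapped (log2 fold change -0.17, 95% interval -0.43 to 0.10, limma adjusted p = 0.538). The controls again fell into a low pair, mice 1 and 3, and a high pair, mice 2 and 4. Pde4a split in the same way, at 138.7, 321.5, 166.2 and 444.2 in controls, so that the highest was 3.2 times the lowest, and it was 254.6, 337.9, 232.1 and 228.1 in exposed mice (log2 fold change 0.12, 95% interval -0.62 to 0.85, adjusted p = 0.902). With such a spread the interval of Pde4a spans changes in either direction larger than those of any of the other 6 genes in this experiment.

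Slc24a4 gave 236.7, 248.7, 262.6 and 296.9 in PEA controls and 289.9, 309.8, 300.7 and 266.8 in exposed mice, a log2 fold change of 0.16 with overlap (95% interval -0.09 to 0.42, limma adjusted p = 0.537). Slc12a2 gave 7850, 9018, 8989 and 9037 against 7742, 6216, 8345 and 8280, with control 1 well below the other controls (log2 fold change -0.20, 95% interval -0.45 to 0.05, adjusted p = 0.447). Neither of the transporters therefore differed beyond the spread between mice. Stoml3 was the steadiest gene among the controls, at 4056, 4206, 3961 and 3974, and was 3538, 4073, 3770 and 4090 in exposed mice (log2 fold change -0.07, 95% interval -0.26 to 0.12, adjusted p = 0.745). Cnih2 was low in this experiment, at 69.5, 62.2, 55.3 and 44.1 in controls and 56.5, 82.8, 56.9 and 50.7 in exposed mice (log2 fold change 0.09, 95% interval -0.39 to 0.56, adjusted p = 0.884).

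**Figure D5:**
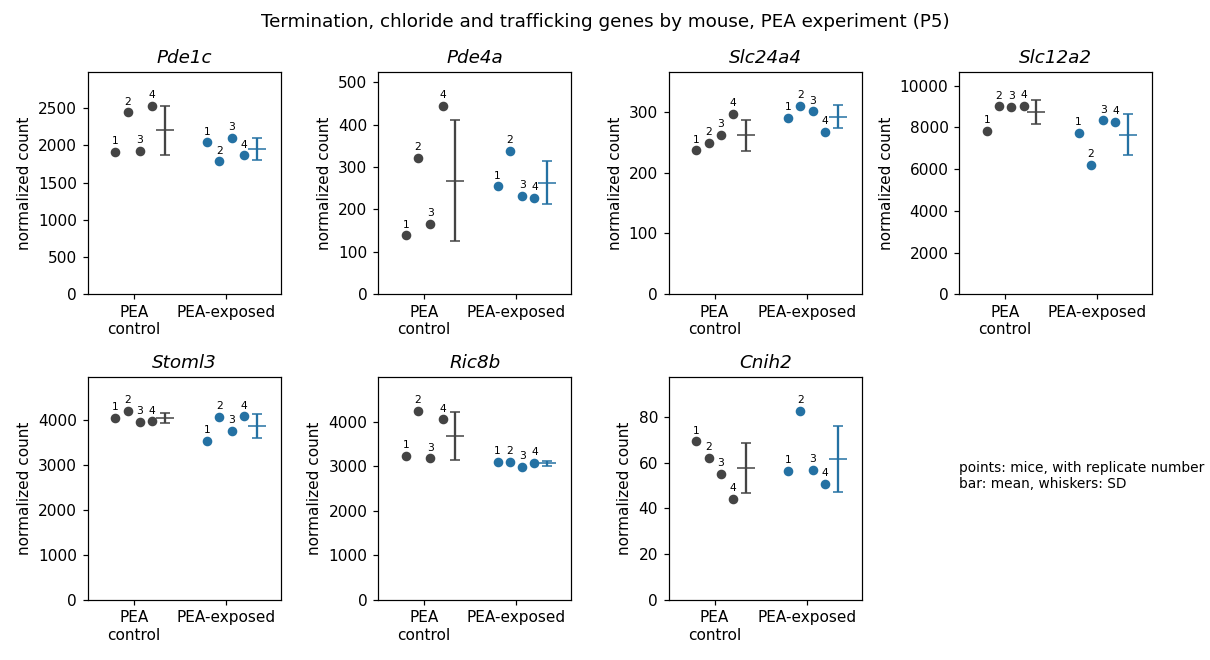
Normalized count of each of the 7 genes (y axes, from 0) in 4 unexposed mice and 4 mice exposed to PEA from P0 until P5; points are mice with their replicate number, bars are means and whiskers SD. Ric8b is the only gene without overlap, with the exposed mice between 2979 and 3099, and in controls Pde1c, Pde4a and Ric8b are low in mice 1 and 3 and high in mice 2 and 4.

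The median log2 fold change of the 7 genes was -0.07 in the PEA experiment, against -0.02 over all genes, and 4 of 7 were lower, against 53.5% of all genes. The lists around them held 0 called genes as well. The cascade had a median of -0.04 with 5 of 10 lower: for Gnal the log2 fold change was -0.37 (limma adjusted p = 0.165), for Omp 0.31 (0.252), for Adcy3 0.20 (0.522), for Cnga2 -0.18 (0.335), for Ano2 0.00 (0.997) and for Gfy, the lowest, -0.49 (0.529). Other termination and calcium genes had a median of -0.01 (16 tested, Slc8a3 lowest at -0.80 and Slc8a2 highest at 0.84), chloride genes 0.05 (14 tested, Wnk1 lowest at -0.51 and Wnk4 highest at 0.93), and paralogs 0.05 (18 tested, Pde1a lowest at -0.78 and Slc12a5 highest at 0.63). The genes called in Kir2.1 mice had log2 fold changes here of -0.19 (Slc8a1, adjusted p = 0.358), -0.56 (Rgs2, 0.237) and -0.15 (Slc24a2, 0.643).

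Relative to the cascade, Ric8b differed by -0.21 in exposed mice (exact two-sided permutation p = 0.0571, and -0.075 with p = 0.486 against Cnga2 alone) and Slc24a4 by 0.21 (p = 0.0857), and the exact p of the other 5 lay between 0.514 and 0.886. Relative to the cascade mean none was below 0.05, although 4 mice against 4 allow a p of 0.0286. Against Cnga2 alone, Slc24a4 differed by 0.34 (exact permutation p = 0.0286, unadjusted). Cnga2 itself was lower in every exposed mouse, at 4084 to 4658 against 4853 to 4936 in controls, which is part of that difference. Gfy, at a mean of only 124 in PEA controls, weighs as much in the cascade mean as each of its other genes. Of the ratios to single genes, Slc24a4 to Ano2 (difference 0.16), Pde1c to Adcy3 (-0.36) and Pde1c to Omp (-0.47) separated the groups completely (exact permutation p = 0.0286 each, 0.153 after adjustment over the 16 ratios). Omp itself was higher in every exposed mouse, at 7510 to 10082 against 6087 to 7326 in controls. Pde1c and Adcy3 taken alone overlapped, with log2 fold changes of -0.17 and 0.20, so these 2 ratios are not changes of Pde1c alone. In the Kir2.1 experiment the Pde1c to Omp ratio had differed by -0.05. The experiments were normalized apart and their difference was not tested.

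Vomeronasal receptor genes differed between mice of the PEA experiment too, with a mean log2 value of 2.41, 1.86, 1.54 and 0.502 in controls and of 2.16, 0.673, 0.538 and 0.516 in exposed mice. Without the 4 mice above 1, control 4 alone is left against 3 exposed mice, so the values are given without a test. The log2 fold changes were then -0.41 for Ric8b, -0.40 for Pde1c, -0.76 for Pde4a, -0.26 for Slc12a2, 0.48 for Cnih2, -0.025 for Slc24a4 and 4e-04 for Stoml3. Horizontal basal cell markers Krt5 and Krt14 had log2 fold changes of 0.63 and 0.62 in exposed mice, at unadjusted p below 0.05 (adjusted p = 0.142 and 0.108). Trp63, the remaining marker of that list, had 0.0027 (limma adjusted p = 0.995), so the markers of these cells did not move together. Of the 33 markers of other cells 0 passed in limma here, with 7 higher and 2 lower at an unadjusted p below 0.05. The part of these cells in the values of the 7 genes was not tested.

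Which genes varied from mouse to mouse as the 7 did was described by the correlation of log2 deviations from the mouse's own group mean, over 14 mice and 16705 genes, with up to 3 of the highest given for a gene. For Pde1c these were Rtp1 (Pearson r = 0.966, Spearman rho = 0.938), Cmtm4 (0.950 and 0.965) and Trip12 (0.949 and 0.921). Rtp1 is a gene of the cascade list and encodes a chaperone that brings odorant receptors to the cell surface. For Slc24a4 they were Peak1 (0.912 and 0.807), Ano2 (0.883 and 0.837) and Dusp8 (0.875 and 0.767), so that the gene of the chloride channel came second of all genes. For Pde4a they were Foxk1 (0.979 and 0.996), Tmem178b (0.976 and 0.934) and Sh3pxd2a (0.969 and 0.877). The highest single correlations were those with Tmem263 for Slc12a2 (0.922 and 0.701), Olfr1013 for Stoml3 (0.925 and 0.855) and 2810029C07Rik for Cnih2 (0.950 and 0.899).

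Among themselves, Pde1c and Ric8b varied most alike from mouse to mouse (r = 0.83 over 14 mice), followed by Pde4a with Ric8b (0.81), Pde1c (0.72) and Slc24a4 (0.69). Cnih2 and Slc12a2 went opposite ways (r = -0.77), and Stoml3 had no correlation beyond 0.29 in size with any of the other 6. All genes of a mouse share 1 library and its normalization, and the PEA controls, with their low and high pairs, weigh heavily in these values, which are given as a description.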

How the data were processed

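The deposited values are normalized counts per gene, a normalized signal and not whole reads. According to the submitters' processing notes and the study's methods, the authors estimated transcript counts with Salmon 1.3.0 on GRCm38, summed them per gene and normalized each experiment with DESeq2 1.30.0. Salmon was run for reverse-stranded reads in both experiments, whereas the kit of the Kir2.1 libraries kept no strand; what this did to their values cannot be seen in the files. Depth is unknown and whole reads could not be recovered, so no count test was run.

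Genes with a mean of at least 10 in an experiment were kept, 1 was added and log2 taken, which understates changes of low genes. Each experiment was fitted alone across all genes with limma 3.58.1 (R 4.3.3, trended empirical Bayes, Benjamini-Hochberg, threshold 0.05). Single relative levels were compared by exact two-sided permutation over mice. The test was checked on simulated data. The rest was done in Python 3.11.15 (scipy 1.17.1, numpy 2.4.6, pandas 2.3.3), with figures in matplotlib 3.10.9. Coordinates came from GENCODE vM21 (GRCm38) and promoters from RefSeq (GRCm38.p6); 6 of the 7 genes matched.

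Columns were matched to mice by their labels. The limma p-values weigh a group difference against the spread between these mice, moderated across all genes tested by the mean-variance trend. According to the study, the odor came from a vial in the cage that pups shared with their mother. The labels used name no cage or litter, so effects of these cannot be told apart from exposure. Named genes are the 7, the genes of the lists (cascade, termination and calcium, chloride, paralogs) past the threshold in either experiment, Kcnj2, Omp, Cnga2, Adcy3, Gnal and Ano2, the largest rise and fall of each list, and the 3 genes most like each of the 7 (those of Ric8b are not reported here); any other gene was added with its value seen. The 7 genes and all lists, markers of other cells included, were chosen with earlier results of these data known. Alternatives changed the pseudocount, filter, trend, moderation, normalization, replicate block, covariates and the mice included.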

Additional observations from a re-analysis of the deposited data

Results flagged for a closer look

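Among the 4 PEA control mice, Slc12a2 had 1 value far from the others: 7850 in mouse 1, against 8989 to 9037 in the other 3, a gap of 0.96 of the whole range of the group. The limit that this gap exceeded is passed by chance in about 1 of 20 groups of 4 values, a gap as wide as this one less often, and 14 groups of 4 mice were examined, 2 for each of the 7 genes. The same mouse had the highest vomeronasal receptor level of its group, at a mean log2 of 2.41. Without it the log2 fold change of Slc12a2 was -0.25 (limma adjusted p = 0.358).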

How the results depend on the processing

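In the Kir2.1 experiment 0 of the 7 genes were called with no mean-variance trend, under a replicate block or with the vomeronasal receptor level as a covariate, and 0 to 1 without any one mouse. The log2 fold change of Pde1c was then -0.65 (limma adjusted p = 0.119) with no trend, -0.65 (0.0799) under the block, -0.68 (0.0738) with the covariate and -0.69 to -0.60 (0.0455 to 0.127) without any one mouse, and its call held in 9 of 17 alternatives. All genes called, 70, became 20 with no trend, 9 under the block, 23 and 44 with the vomeronasal and the Xist covariates, and 23 to 44 without any one mouse. Under the block the adjusted p was 0.0747 for Slc8a1 and Slc24a2, 0.0799 for Omp and 0.112 for Rgs2, so that none of these calls held. Same-numbered mice correlated at -0.06 to 0.16 in their deviations from the group means (-0.05 to 0.13 in the PEA experiment), so the numbers were not taken to pair them. The value of Slc12a2 was -0.031 with the vomeronasal covariate and -0.028 to 0.12 without any one mouse. In the PEA experiment 0 of the 7 were called in any of 20 alternatives, and all genes called, 31, became 52 without the filter, 20 with the vomeronasal covariate, 49 without the 4 mice with high vomeronasal receptor values (an alternative added after the data were seen, in which the lone control is assumed to vary like the rest) and 19 to 43 without any one mouse. Without those 4 mice Slc24a4 was at -0.025, Pde4a at -0.76 and Stoml3 at 4e-04; Stoml3 was at 0.012 after quantile normalization, and Pde4a at -0.11 with the vomeronasal covariate. Without any one mouse Pde4a ranged from -0.15 to 0.41 and Cnih2 from -0.060 to 0.18. Relative to Cnga2 in place of the cascade, Stoml3 differed by -0.045 in Kir2.1 mice, Ric8b by 0.025, and in PEA-exposed mice Ric8b by -0.075, Slc24a4 by 0.34 (exact permutation p = 0.0286), Pde1c by 0.0084 and Stoml3 by 0.11. Relative to the cascade without any one mouse, Stoml3 ranged from -0.0061 to 0.14 in Kir2.1 mice, and in exposed mice Pde1c ranged from -0.19 to 0.0021, Pde4a from -0.058 to 0.43, Slc12a2 from -0.23 to 0.029, Stoml3 from -0.089 to 0.036 and Cnih2 from -0.012 to 0.27. Why these values moved was not tested. The depth of the libraries is unknown, and no limit of detection can be given from it.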
